A study of Mus musculus with 4 samples.

Results

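The transcription factors of the naive state of mouse embryonic stem cells (mESCs) were followed as a set of 10 genes, Klf2, Klf4, Klf5, Esrrb, Tfcp2l1, Tbx3, Zfp42, Prdm14, Nr0b1 and Nr5a2. They were taken by name, with earlier results of these data known. All 10 were present among the 56748 genes listed, and all 10 passed the filter on low counts that left 18157 genes to be tested. The RNA-seq data came from the mouse ES cell line E14, grown without feeders on gelatin in serum with LIF, in 2 groups of 2 libraries. WT1 and WT2 came from wild-type E14 cells. KO1 and KO2 came from E14 cells in which Npac (listed as Glyr1) had been knocked out with CRISPR/Cas9 guides named for the third exon, followed by puromycin selection and picking of colonies, and were taken as 1 library from each of the 2 Npac KO clones that the study describes. Each KO line is a clone, and the sources do not say that WT1 and WT2 were separate cultures, so the p-values below measure only the spread between these libraries.

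Naive pluripotency is held by a network of transcription factors that bind each other's genes together with Oct4, Sox2 and Nanog. LIF acts through STAT3 on Klf4 and Tfcp2l1, Wnt signalling relieves Tcf7l1 repression of Esrrb, Klf2 and Tfcp2l1, and the PI3K and MAPK pathways act on Tbx3. Several members can stand in for each other, as the Klf factors do, and most of the 10 genes are silenced when cells leave the naive state for the formative and primed states. RNA was taken from whole cultures, so fewer cells that express a gene and less RNA per cell cannot be told apart in any value given here.

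Promoter sequence was looked at for the members with a RefSeq entry, 7 of 10 (Klf5, Tbx3 and Prdm14 had none), as the 250 bases before each annotated gene start on GRCm38.p6. The sequences of Zfp42 and Klf2 are shown because both genes lie on chromosome 8 and moved in opposite directions, and that of Tfcp2l1 because it held more matches than any other window. Capitals mark matches to 6 short motifs searched on both strands, which were the octamer of POU factors (ATGCAAAT), the half-site of orphan nuclear receptors (AAGGTCA), the Klf box (CCACNCCC), the STAT site (TTCCNGGAA), the Tcf site (ATCAAAG) and the TATA box (TATAAA).
Zfp42, chr8:43307010-43307259, minus strand: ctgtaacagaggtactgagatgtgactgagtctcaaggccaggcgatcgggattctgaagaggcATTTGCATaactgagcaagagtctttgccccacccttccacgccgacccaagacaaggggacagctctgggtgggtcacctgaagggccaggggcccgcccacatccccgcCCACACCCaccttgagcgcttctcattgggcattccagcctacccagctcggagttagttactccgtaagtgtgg
Tfcp2l1, chr1:118627695-118627944, plus strand: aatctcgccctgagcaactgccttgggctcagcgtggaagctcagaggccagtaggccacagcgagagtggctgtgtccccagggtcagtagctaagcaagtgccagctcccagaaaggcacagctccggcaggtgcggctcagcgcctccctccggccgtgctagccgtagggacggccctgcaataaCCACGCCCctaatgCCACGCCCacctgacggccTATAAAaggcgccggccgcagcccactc
Klf2, chr8:72318812-72319061, plus strand: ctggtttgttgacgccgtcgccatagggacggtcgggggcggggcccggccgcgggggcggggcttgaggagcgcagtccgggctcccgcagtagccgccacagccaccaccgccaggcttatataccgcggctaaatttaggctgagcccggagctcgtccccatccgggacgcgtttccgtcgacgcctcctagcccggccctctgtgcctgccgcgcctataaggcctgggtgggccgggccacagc

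The Zfp42 window held an octamer on the opposite strand, starting at position -186 from the gene start, and a Klf box at -75. Of all 32851 windows of this length, 1.60% held the octamer and 15.9% a Klf box. The Tfcp2l1 window held a pair of Klf boxes at -61 and -47 and a TATA box at -28, a motif found in 12.4% of windows, and the Nr0b1 window had a TATA box at -32. In the first window of Nr5a2 a TATA box matched on the opposite strand at -181, and in its second window a Klf box did at -157. No match to the 6 motifs was found in the windows of Klf2, Klf4 and Esrrb, and the nuclear receptor (4.08% of windows), STAT (0.913%) and Tcf (3.21%) letters were found in no member. The windows of Klf4 and Klf2 were rich in G and C (74.0% and 71.2%, against a median of 52.4% over all windows). None of the matches overlapped another, and a match is given as letters only, not as a bound site.

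The libraries held 15850805 to 16965120 counted reads. Glyr1 itself had 259 and 178 TMM-normalized CPM (reads scaled to a common library size) in WT1 and WT2 and 47.9 and 51.3 CPM in KO1 and KO2, so the knockout was visible in both KO libraries as less RNA and not as none. Of 8 markers of ES cell identity, among them Pou5f1, Sox2 and Nanog, all were read in every library and 0 were called by edgeR (2 at an unadjusted p under 0.05, and 1 by DESeq2), with summed levels of 5428 and 4618 CPM in WT and 4660 and 4412 CPM in KO libraries. Of all genes tested, edgeR called 10.7% lower and 11% higher in KO. Genes on chromosomes 8 and 11 were higher as a group in both KO libraries. Their median log2 differences from the WT mean were 0.48 to 0.51 above the median of all autosomal genes. The chromosome of each member is given below for that reason.

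In Npac KO cells 7 of the 10 factors fell, 1 rose and 2 did not pass the test. Klf5, Zfp42, Tbx3 and Nr0b1 fell most, to 9.40%, 16%, 17.3% and 17.9% of their WT means, and Klf4, Tfcp2l1 and Prdm14 fell to between 39.9% and 43.9%. Klf2 was the member that rose, to 195% of its WT mean, while Esrrb and Nr5a2 were not called. A gene was called at an adjusted p under 0.05 (quasi-likelihood test of edgeR, Benjamini-Hochberg adjustment over all 18157 genes) and a fold change over 1.5. Of all genes tested, 10.7% fell and 11% rose by this rule, and among the 1257 genes that the files annotate as transcription factors the shares were 11.9% and 8.43%. In 8 members both KO libraries lay below both WT libraries, which was so for 32.5% of all genes tested, and in Klf2 both lay above, as in 33.2% of genes. The median log2 fold change of the 10 members was -1.28, beside 0.0015 over all genes tested. With FPKM tested by limma-trend in place of the counts, 5 members were lower and 0 higher, where 4.54% of genes were lower and 5.1% higher, and the calls of Klf2, Prdm14 and Nr0b1 were lost.

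**Figure D1:**
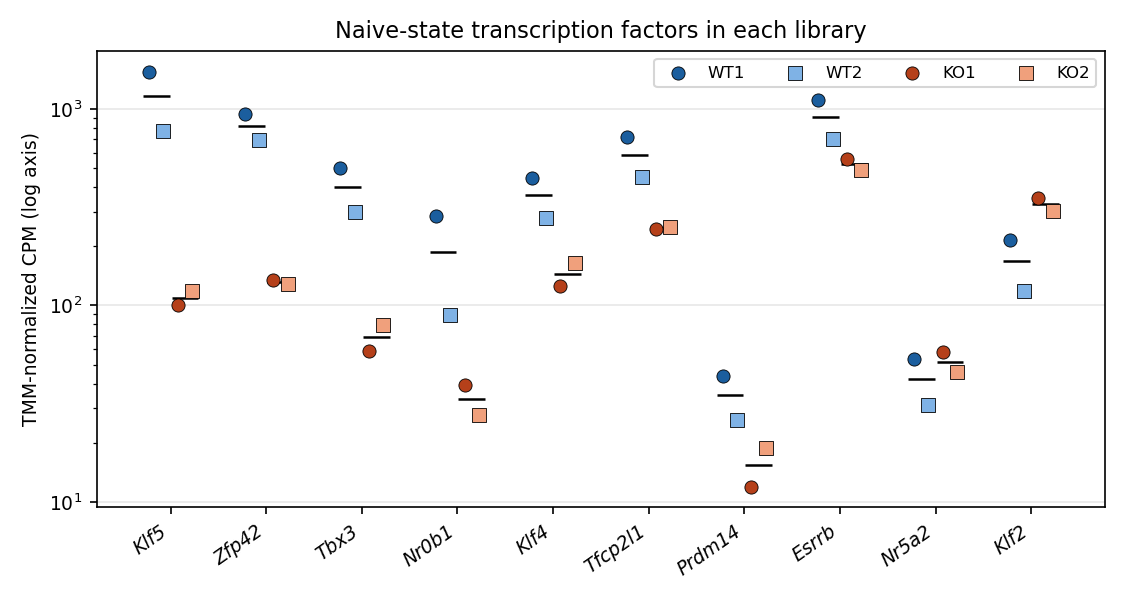
TMM-normalized CPM of the 10 factors in each library on a log axis, with WT1 and WT2 in blue, KO1 and KO2 in orange, and a black bar at the mean of each group (n = 2). The KO points lie below both WT points in 8 genes, from Klf5 to Esrrb, overlap them in Nr5a2 and lie above them in Klf2, and the WT1 point is above the WT2 point in all 10.

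Klf2, Klf4 and Klf5 encode Krüppel-like zinc finger factors with overlapping roles in self-renewal, Klf4 acting downstream of LIF and STAT3 and Klf2 being the member most tied to MEK inhibition. Klf5 (ENSMUSG00000005148, chromosome 14 from 99536127 to 99552472 in the authors' files) had 1552 CPM in WT1 and 770 CPM in WT2, and 100 CPM in KO1 and 118 CPM in KO2. On the log2 scale the WT libraries were further apart than for any other member but Nr0b1, yet the lower of them stood far above both KO libraries. Klf5 fell 10.6-fold, from 1161 ± 553 to 109 ± 12.5 CPM (SD, n = 2 each), a log2 fold change of -3.41 (standard error 0.35, edgeR adjusted p = 0.00142). Klf4 (ENSMUSG00000003032, chromosome 4 from 55527143 to 55532466) had 448 and 278 CPM in WT1 and WT2 and 126 and 164 CPM in KO1 and KO2. The KO line that was higher for Klf4 and Klf5 was KO2, but the lines differed by little beside the distance to WT. Klf4 fell 2.50-fold (log2 fold change -1.32, 95% confidence interval -1.94 to -0.70).

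Klf2 (ENSMUSG00000055148, chromosome 8 from 73072877 to 73075500) went the other way, with 217 CPM in WT1, 118 CPM in WT2, 351 CPM in KO1 and 304 CPM in KO2. Each KO library exceeded both WT libraries, and the WT libraries were further apart than the KO libraries. Klf2 rose 1.95-fold, from 167 ± 69.5 to 327 ± 33.2 CPM (SD, n = 2 each), a log2 fold change of 0.97 (standard error 0.29, edgeR adjusted p = 0.0481). This call was near the threshold. The log2 fold change was 0.85 without KO1, 1.08 without KO2, 0.59 without WT2 and 1.44 without WT1. Each of these fits leaves a group without a replicate, so only the size of the change is given. Klf2 lies on chromosome 8, where 26.1% of the 979 genes tested rose and 5.41% fell. After the median of each chromosome was removed from each KO library, Klf2 stood 0.46 above WT on the log2 scale and was no longer called (edgeR adjusted p = 0.292).

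The balance among the 3 Klf genes was compared in FPKM, which is scaled by gene length. Their summed FPKM came to 559 for WT1, 301 for WT2, 250 for KO1 and 237 for KO2. Klf5 made up 53.0% and 48.8% of that sum in WT1 and WT2 but 7.70% and 9.42% in KO1 and KO2, while Klf2 made up 20.8% and 21.1% in WT and 75.8% and 68.3% in KO. Klf4 stayed between these, with 26.1% and 30.1% in WT and 16.5% and 22.3% in KO. In WT cells Klf2 thus had 0.393 and 0.433 times the FPKM of Klf5, and in Npac KO cells 9.85 and 7.25 times. The shares of WT1 and WT2 were close although their sums differed, since all 3 genes were higher in WT1, and for none of the 3 did the WT and KO ranges of the share overlap.

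**Figure D2:**
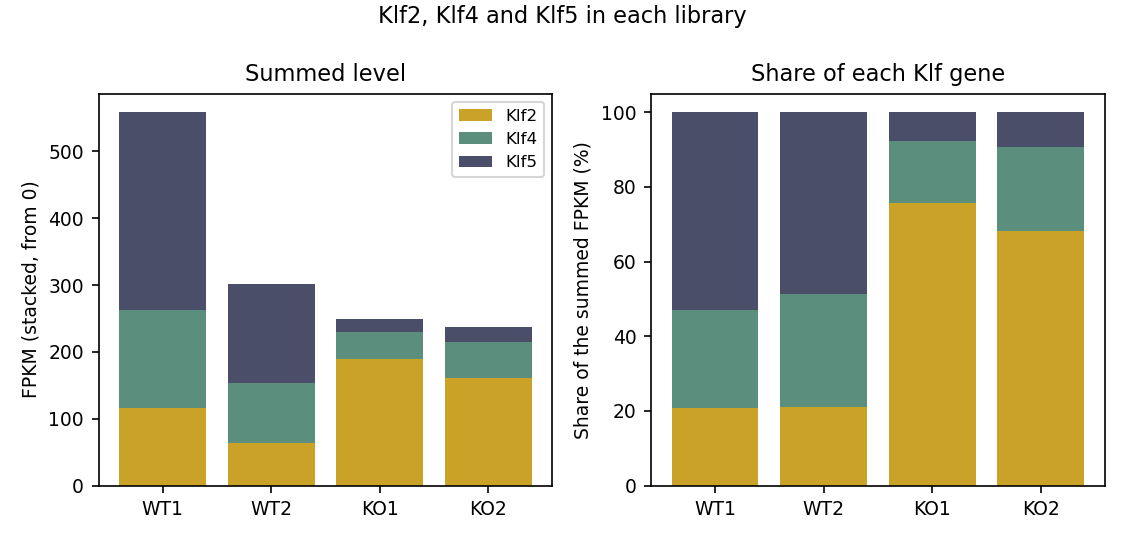
FPKM of Klf2, Klf4 and Klf5 in each library, stacked from 0 on the left and as the share of their sum in percent on the right. Klf5 takes 48.8% to 53.0% of the sum in the WT libraries and Klf2 takes 68.3% to 75.8% in the KO libraries.

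Esrrb, Nr0b1 and Nr5a2 encode orphan nuclear receptors. Esrrb is a target of Wnt and Nanog that can replace Nanog in self-renewal, Nr0b1 (Dax1) is a receptor without a DNA-binding domain of the usual kind that binds Oct4 and Nr5a2, and Nr5a2 (Lrh-1) acts on Pou5f1 and can replace Oct4 in reprogramming. Nr0b1 (ENSMUSG00000025056, chromosome X from 85235370 to 85239553) had 285 CPM in WT1, 89.2 CPM in WT2, 39.2 CPM in KO1 and 27.8 CPM in KO2. WT2 was nearer to the KO libraries than to WT1 in CPM, but the groups did not overlap. Nr0b1 fell 5.58-fold, from 187 ± 138 to 33.5 ± 8.05 CPM (SD, n = 2 each), a log2 fold change of -2.48 (standard error 0.49, edgeR adjusted p = 0.0133). Its size depended on WT1, without which the log2 fold change was -1.44, in a fit that leaves WT without a replicate.

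Esrrb (ENSMUSG00000021255, chromosome 12 from 86407891 to 86568402) had 1111 and 704 CPM in WT1 and WT2 and 559 and 489 CPM in KO1 and KO2. The groups did not overlap, but the gap between WT2 and KO1 was smaller than the gap between the WT libraries. The log2 fold change was -0.79 (95% confidence interval -1.37 to -0.21, edgeR adjusted p = 0.0579), a ratio of WT to KO of 1.73, and Esrrb was not called. It was called under 4 of 13 other settings, among them DESeq2. The log2 fold change of Esrrb was -1.09 without WT2 and -0.45 without WT1, in fits that leave WT without a replicate. Nr5a2 (ENSMUSG00000026398, chromosome 1 from 136770309 to 136888186) had 53.7 and 31.1 CPM in WT1 and WT2 and 57.8 and 45.6 CPM in KO1 and KO2. Its groups overlapped, with WT1 between the KO libraries. The log2 fold change of 0.29 (95% confidence interval -0.37 to 0.94, edgeR adjusted p = 0.50) depended on the WT library used. It was 0.71 without WT1 and -0.0596 without WT2, in fits that leave WT without a replicate.

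Tfcp2l1 and Tbx3 join the network to its signals. Tfcp2l1, a CP2 family factor, is a main target of LIF and STAT3 signalling, and Tbx3 is a T-box factor that can sustain self-renewal when LIF is absent. Tbx3 (ENSMUSG00000018604, chromosome 5 from 119808734 to 119822789) had 498 CPM in WT1, 299 CPM in WT2, 58.7 CPM in KO1 and 79.7 CPM in KO2. The lower WT library was several times the higher KO library. Tbx3 fell 5.76-fold, from 399 ± 141 to 69.2 ± 14.9 CPM (SD, n = 2 each), a log2 fold change of -2.53 (standard error 0.29, edgeR adjusted p = 0.00229). Tfcp2l1 (ENSMUSG00000026380, chromosome 1 from 118555675 to 118612898) had 717 and 451 CPM in WT1 and WT2 and nearly equal values of 244 and 252 CPM in KO1 and KO2. The spread of Tfcp2l1 was thus nearly all between the WT libraries, and both lay well above the KO values. Tfcp2l1 fell 2.36-fold, a log2 fold change of -1.24 (standard error 0.25, edgeR adjusted p = 0.0135).

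Zfp42 (Rex1) encodes a zinc finger protein of the YY1 family and is the classic marker of the naive state, and Prdm14 encodes a PR domain protein that holds back FGF receptor and DNA methyltransferase genes. Zfp42 (ENSMUSG00000051176, chromosome 8 from 43748100 to 43760017) had 945 CPM in WT1, 697 CPM in WT2, 134 CPM in KO1 and 129 CPM in KO2. Of the members that fell it had the closest WT libraries on the log scale, and its KO libraries were almost equal. Zfp42 fell 6.24-fold, from 821 ± 175 to 132 ± 3.54 CPM (SD, n = 2 each), a log2 fold change of -2.64 (standard error 0.22, edgeR adjusted p = 0.000704). It fell although the genes of its chromosome were higher as a group, and relative to that chromosome's median the log2 fold change was -3.15. Prdm14 (ENSMUSG00000042414, chromosome 1 from 13183681 to 13197387) was the member with the fewest reads, with 43.8 and 26.2 CPM in WT1 and WT2 and 12.0 and 18.8 CPM in KO1 and KO2. The KO libraries were below the WT libraries, with KO2 not far from WT2. Prdm14 fell 2.27-fold, a log2 fold change of -1.18 (standard error 0.33, edgeR adjusted p = 0.04). The log2 fold change was -0.90 without KO1, -1.53 without KO2, -0.79 without WT1 and -1.51 without WT2. These fits each leave a group without a replicate.

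**Figure D3:**
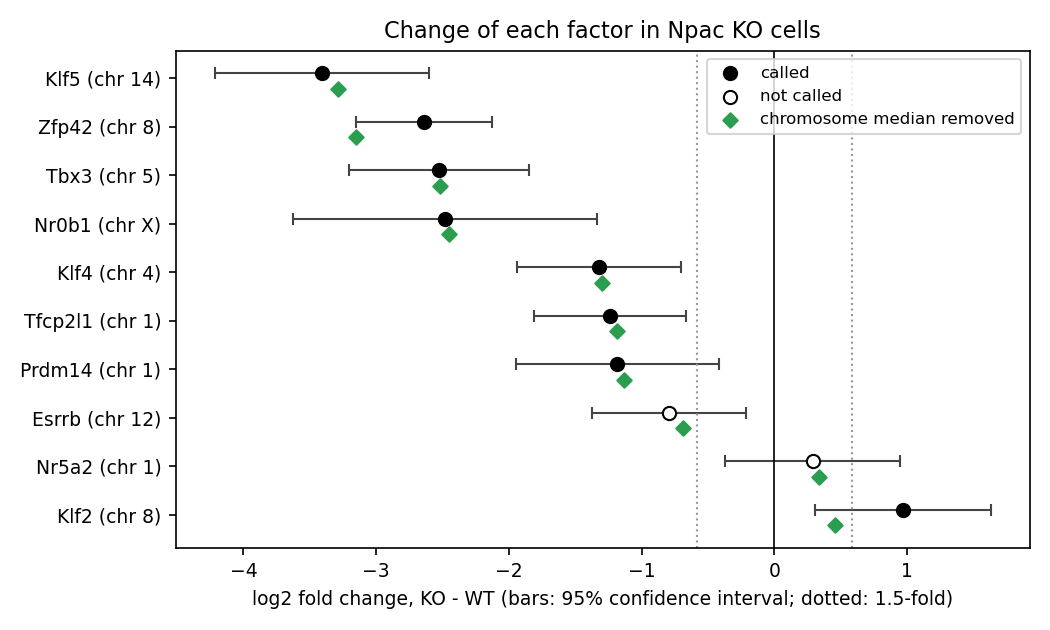
Log2 fold change of each factor in Npac KO cells against WT cells from edgeR, with bars for the 95% confidence interval, filled circles for called genes, open circles for genes not called, diamonds for the values after chromosome medians were removed, and dotted lines at a fold change of 1.5. The 7 factors that fell have values from -3.41 to -1.18, the interval of Esrrb also lies below 0 although it was not called, and removal of the chromosome medians moves the pair on chromosome 8 most, Zfp42 to -3.15 and Klf2 to 0.46.

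Among the 2350 genes with a mean of at least 100 CPM, ranked by the size of the fall, Klf5 stood at place 12, Zfp42 at 19, Tbx3 at 22 and Nr0b1 at 23. Klf4 and Tfcp2l1 followed at 84 and 94, and Esrrb at 211. Counted from the largest rise, Klf2 stood at place 187. The limit is on the mean over all 4 libraries, and Tbx3 and Nr0b1 passed it through their WT libraries, so the places are a description only.

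Each KO line was also set against the WT pair as a group of its own, in 1 fit of 3 groups, where a line has 1 library and the spread comes from the WT pair. In KO1, 5 members were called lower, Klf4, Klf5, Tbx3, Zfp42 and Nr0b1, where 3.34% of all genes tested were lower. In KO2, 4 members were called lower, the same genes without Klf4, where 2.34% of all genes were lower. In both lines 0 members were called higher by edgeR (1 at an unadjusted p under 0.05 in each), beside 3.83% of genes in KO1 and 3.1% in KO2. Klf2 had a log2 difference of 1.07 in KO1 (edgeR adjusted p = 0.111) and 0.86 in KO2 (edgeR adjusted p = 0.217). The log2 differences were alike in the lines for Zfp42 (-2.61 in KO1 and -2.67 in KO2), Tfcp2l1 (-1.26 and -1.22) and Klf5 (-3.53 and -3.30), and furthest apart for Prdm14 (-1.55 and -0.90). Tested directly, KO2 against KO1 gave an edgeR adjusted p of 1 for every member, in a contrast with no replicate of either line, so a difference between the lines was not detectable here. Both contrasts with WT share the WT libraries.

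The members differed between the WT libraries in a shared direction. WT1 was above WT2 in all 10 members, by 0.44 (Zfp42) to 1.67 (Nr0b1) on the log2 scale, with a median of 0.74, whereas WT1 was above WT2 in 49.3% of all genes tested. Only 21.5% of genes tested had a log2 ratio of WT1 to WT2 at least as large as that of Zfp42. The KO libraries showed no such order, with KO1 above KO2 in 5 of the 10 members and a median log2 ratio of 0.0064. For the 8 members whose groups did not overlap in the downward direction, WT2 was the WT library nearer to the KO libraries. The summed FPKM of the 10 genes came to 1572 for WT1, 940 for WT2, 483 for KO1 and 451 for KO2.

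Levels could be compared between genes in FPKM. In WT cells the order was Zfp42 (433 FPKM, mean of 2 libraries), Klf5 (222), Esrrb (149), Klf4 (118), Nr0b1 (103), Klf2 (90.0), Tfcp2l1 (61.4), Tbx3 (59.7), Prdm14 (13.5) and Nr5a2 (7.13). The spread between WT1 and WT2 left most of that order unsettled, and the ranges of neighbours were apart only between Zfp42 and Klf5, between Tbx3 and Prdm14 and between Prdm14 and Nr5a2. In Npac KO cells the order was Klf2 (175 FPKM), Esrrb (85.8), Zfp42 (69.2), Klf4 (47.0), Tfcp2l1 (26), Klf5 (20.7), Nr0b1 (18.3), Tbx3 (10.3), Nr5a2 (8.67) and Prdm14 (5.92). Here the KO libraries were close enough to set most neighbours apart, and the ranges overlapped only between Klf5 and Nr0b1 and between Tbx3 and Nr5a2. Klf2 went from place 6 to place 1, and Klf5 from place 2 to place 6.

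Some reads of these genes could have been shared with other features. Zfp42 has a processed pseudogene, Zfp42-ps1 (chromosome 15 from 93577041 to 93577530 in the authors' files), that matched the Zfp42 transcript at 98.4% identity. It had 1228 and 869 reads in WT1 and WT2 and 12 and 8 reads in KO1 and KO2, which is 8.51%, 7.13%, 0.576% and 0.358% of the Zfp42 reads. The pseudogene thus lost a larger share of its reads than Zfp42 did, and with both summed the log2 fold change was -2.74. The other 5 pseudogenes that matched Klf4, Klf5 or Nr5a2 had 0 reads in every library.

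The sources used here do not give the strand setting of the counting, and overlap was judged by gene span and not by exons. Whether reads of an overlapping gene were counted for a member was not tested. A long noncoding RNA inside Esrrb, ENSMUSG00000121169, had 17.4 and 20.9 CPM in WT and 6.24 and 5.66 CPM in KO libraries. It fell (log2 fold change -1.69, edgeR adjusted p = 0.00808), while Esrrb was also lower but not called (-0.79). Whether these changes differ was not tested. At Tbx3, the antisense transcript Tbx3os1 had 7.53 and 7.73 CPM in WT1 and WT2 and 1.54 and 3.18 CPM in KO1 and KO2, and it fell with Tbx3 (log2 fold change -1.68, edgeR adjusted p = 0.035). A second overlapping RNA there, ENSMUSG00000120646, had 1.31 and 1.03 CPM in WT and 0.386 and 0.231 CPM in KO libraries and was not called (log2 fold change -1.90, edgeR adjusted p = 0.0612).

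Among the genes upstream of the network, the list of LIF, STAT3 and Wnt inputs held 13 genes, all tested. Of these 4 fell and 2 rose, with a median of -0.41, beside 10.7% and 11% of all genes tested. Lifr, the LIF receptor (log2 fold change -0.71, edgeR adjusted p = 0.0305), Stat3, the factor it activates (-0.74, edgeR adjusted p = 0.0265), Ctnnb1, which encodes beta-catenin (-1.04, edgeR adjusted p = 0.012), and the repressor Tcf7l1 (-1.66, edgeR adjusted p = 0.0154) fell. The activator Tcf7 (2.05, edgeR adjusted p = 0.00151) and the Wnt target Axin2 (1.68, edgeR adjusted p = 0.00523) rose, so the list moved in both directions. Stat3, Tcf7 and Axin2 lie on chromosome 11, and relative to its median their log2 fold changes were -1.23, 1.56 and 1.19, all still called. Of the 6 genes, Tcf7l1 had WT libraries far apart, at 105 and 50.0 CPM, beside 27.6 and 21.3 CPM in the KO libraries.

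Relatives of the members in the same families numbered 29, of which 25 were tested, 4 fell and 1 rose, with a median of -0.24. Over all genes tested, 10.7% fell and 11% rose. Klf15 fell most (log2 fold change -2.69, edgeR adjusted p = 0.0021), from 51.1 and 31.1 CPM in WT1 and WT2 to 6.30 and 6.41 CPM in KO1 and KO2. Klf10, a TGF-beta response gene, fell as well (-1.24, edgeR adjusted p = 0.00883), and Klf11 and Yy1, the relative of Zfp42, each had a log2 fold change of -0.63 (edgeR adjusted p = 0.0431 and 0.04). The limb factor Tbx4 rose from a low level (2.78, edgeR adjusted p = 0.0148), from 0.458 and 1.09 CPM to 4.05 and 6.76 CPM. With chromosome medians removed Klf11 and Yy1 were no longer called (-0.53 each). Esrrg, Tbx5, Yy2 and Nr0b2 had too few reads to be tested.

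The list of other naive genes, 15 genes that were all tested, held 2 that fell and 3 that rose, with a median of 0.27, beside the 10.7% and 11% of all genes tested that fell and rose. Tcl1, a cofactor of AKT (log2 fold change -1.06, edgeR adjusted p = 0.0361), and Tet2, which oxidizes methylcytosine (-1.51, edgeR adjusted p = 0.0144), fell. Dppa3 (Stella), which protects DNA methylation marks of the early embryo, rose most (4.90, edgeR adjusted p = 0.000704), from 1.24 and 0.687 CPM in WT1 and WT2 to 34.0 and 23.4 CPM in KO1 and KO2. Tdh, the threonine dehydrogenase on which mESCs depend (1.63, edgeR adjusted p = 0.0106), and Alpl, which encodes alkaline phosphatase (1.11, edgeR adjusted p = 0.00659), also rose. Tcl1 was not called with chromosome medians removed (-0.96, edgeR adjusted p = 0.0555).

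Of 14 genes of the formative state 13 were tested, of which 3 fell and 3 rose, with a median of 0.59. The shares over all genes tested were 10.7% fallen and 11% risen. The de novo methyltransferase gene Dnmt3a (log2 fold change 1.60, edgeR adjusted p = 0.00394), the Wnt effector Lef1 (2.08, edgeR adjusted p = 0.0243) and the FGF receptor gene Fgfr1 (0.69, edgeR adjusted p = 0.0278) rose. The forkhead gene Foxd3 (-1.79, edgeR adjusted p = 0.0282), the POU factor gene Pou3f1 (-0.88, edgeR adjusted p = 0.0414) and the ERK target Etv4 (-0.76, edgeR adjusted p = 0.0251) fell. Fgfr1 lies on chromosome 8 and was not called relative to its median (0.18), whereas Etv4 on chromosome 11 was (-1.26). Fgf5 had too few reads to be tested.

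The 5 genes known to be repressed by Prdm14 were also read, with a median of 0.69. Of these 3 rose and 0 fell (0 also at an unadjusted p under 0.05 and by DESeq2), beside 11% and 10.7% of all genes tested. Those that rose were Dnmt3a and Fgfr1, which the formative list holds too, and Fgfr2 (log2 fold change 1.57, edgeR adjusted p = 0.0488). Fgfr2 had 1.18 and 1.26 CPM in WT and 3.02 and 4.22 CPM in KO libraries. DESeq2 called 2 of the 5 genes higher, beside 10.2% of all genes. With FPKM at a pseudocount of 1 in limma-trend, 1 was called higher, beside 5.1% of genes. Relative to chromosome medians, Dnmt3a was the gene of the 5 that was still called.

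**Figure D4:**
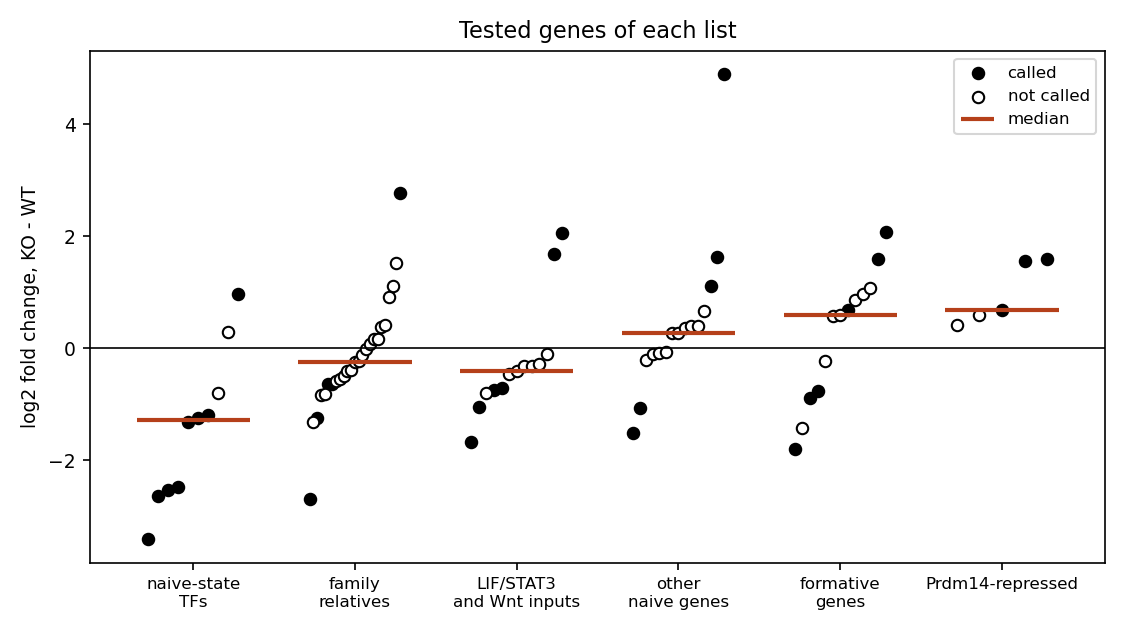
Log2 fold change in Npac KO cells against WT cells of each tested gene of 6 lists, sorted within a list, with filled circles for called genes, open circles for genes not called and a red bar at the median. The 10 naive-state factors have a median of -1.28, while the medians of the other lists run from -0.41 for the signalling inputs to 0.69 for the 5 Prdm14-repressed genes.

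Markers of other cell types were read beside these results, and their part in them was not tested. Calls on these short lists stand beside the 10.7% and 11% of all genes tested that fell and rose. Summed levels of 6 primitive endoderm markers were 31.8 and 32.5 CPM in WT and 20.3 and 27.7 CPM in KO libraries, with 1 fall (Sox7) and 0 rises. The 3 trophoblast markers that could be tested summed to 60.5 and 43.8 CPM in WT and 168 and 145 CPM in KO libraries, of which Tfap2c, the 1 that rose, made up 155 and 134 CPM in KO, while Cdx2 had at most 16 reads and Elf5 at most 11 in any library. The 5 early mesoderm markers summed to 3.08 to 9.76 CPM in any library, and 0 were called by edgeR, at an unadjusted p under 0.05 or by DESeq2. In 4 of them both KO libraries lay above both WT libraries, as in 33.2% of genes tested, and in 1 the groups overlapped. Of 4 neural markers tested Sox1 fell and Olig2 rose, with summed levels of 41.7 and 39.9 CPM in WT and 53.6 and 57.0 CPM in KO libraries. Of the fibroblast markers Col3a1 and Dcn had 0 reads in every library, the 3 tested summed to 35.8 and 59.0 CPM in WT and 45.0 and 50.6 CPM in KO libraries, and Col1a1 on chromosome 11 rose (log2 fold change 1.29, and 0.79 and not called relative to its chromosome median).

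The genes whose profile over the 4 libraries was nearest to the mean profile of the 7 members that fell, by root mean square distance of centred log2 CPM, were Cspg5 (0.051), Dmd (0.0532), Tdrd3 (0.0631), Gng2 (0.076) and Zfp36l1 (0.0775), out of 10406 genes with a mean of at least 10 CPM. For comparison, Tbx3 was the member nearest to that mean at 0.244 and Klf5 the one furthest from it among those that fell, at 0.640. Dmd had 191, 101, 30.8 and 32.6 CPM in WT1, WT2, KO1 and KO2, and Zfp36l1 had 168, 108, 29.9 and 33.4 CPM. Both were higher in WT1 than in WT2, which follows from how they were picked, since the mean profile has WT1 above WT2. With 4 libraries many genes share such a profile, and the likeness is a description only.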

How the data were processed

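RNA-seq of 4 libraries was analysed, 2 from WT E14 cells and 2 from Npac KO cells. Per gene, the authors deposited read counts that had not been normalized. The deposited FPKM values are those counts scaled by gene length and by library sizes that follow median-of-ratios factors. The submitters' processing notes name HISAT2 2.0.5, featureCounts 1.5.0-p3 and mm10, whereas the paper's methods name another HISAT release. The coordinates in the deposited tables matched GRCm38 (GENCODE M21) for 2.83% of 52073 shared genes and for 1 of the 10 members, so they are given as in the files and the promoter windows separately on GRCm38.p6. Strand and multi-mapping settings are not given in the sources used here.

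The count test was that of edgeR 4.0.16 in R 4.3.3 (filterByExpr, TMM, quasi-likelihood, Benjamini-Hochberg over 18157 genes), without covariates, and calls needed both an adjusted p below 0.05 and a change of more than 1.5-fold. Mean ± SD are of TMM-normalized CPM, and confidence intervals are 95% intervals of the fit. Across genes, the log2 CPM of the WT pair had a correlation of 0.967, that of the KO pair 0.983 and those between groups 0.892 to 0.911, and the common biological coefficient of variation was 0.235. The alternatives were DESeq2 1.42.0, other normalizations and count filters, a replicate block, FPKM with limma-trend (limma 3.58.1), removal of chromosome medians, no fold threshold and leaving out each library, and, chosen after the data were seen, the sum of each member with its pseudogenes (blastn 2.17.0+, at least 85% identity over at least 40% of the pseudogene). The members and lists were chosen with earlier results of these data known. Named genes were the members, the called genes of each list, genes that overlap a member and the 5 nearest profiles, and cell type markers and list genes with too few reads were also named where a list's count is given. The neighbours of the members were named after their values were seen. The authors' tables were otherwise used in full, and splicing, RT-qPCR and protein data were not analysed here.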

Additional observations from a re-analysis of the deposited data

How the results depend on the processing

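Precision is set by 2 libraries a group, and counting error is small at these depths. Klf5 and Zfp42 kept their calls under all 13 alternatives (adjusted p up to 0.0473 and 0.0318 with FPKM in limma-trend and no filter). The number of members called lower, 7 in the report, was 5 with FPKM at a pseudocount of 1 or 0.1 and 2 with FPKM and no filter on low values, where 0.545% of genes were called lower. The 1 member called higher became 0 with FPKM under those 3 settings and with chromosome medians removed. In KO1 alone, the number of members called higher also changed with no filter on low counts. The share over all genes was not counted for that fit. Leaving out each library gave 6 to 8 members lower, 0 to 2 higher and a median log2 fold change of -1.58 to -0.93, where a group left with 1 library is assumed to vary like the other group. The log2 fold change of Nr5a2 was 0.71 without WT1 and -0.0596 without WT2. Klf2 lost its call under 4 of 13 alternatives (adjusted p 0.000115 to 0.292), Prdm14 and Nr0b1 under 3 each and Klf4, Tfcp2l1 and Tbx3 under 1 each, all with FPKM apart from Klf2 with chromosome medians removed. The causes were not tested. Over all alternatives the relatives had 0 to 12 genes lower and 0 to 3 higher (4 and 1 in the report), the signalling inputs 0 to 6 and 1 to 2 (4 and 2), the other naive genes 0 to 2 and 1 to 6 (2 and 3), the formative genes 0 to 4 and 0 to 6 (3 and 3) and the Prdm14-repressed genes 0 to 4 higher (3). Libraries of the same number share it in their labels, and whether they were also made together is not stated. Their deviations correlated at 0.332 across genes, and with the replicate block 8 members were lower, with Esrrb added, 1 was higher, the median was -1.25, and 16.5% and 17.2% of all genes were called lower and higher, against 10.7% and 11%. Without WT1 15% and 14.4% of genes were called, without WT2 17.7% and 18.7%, without KO1 4.26% and 4.4% and without KO2 4.28% and 4.31%, lower and higher.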

Other observations

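Within 200 kb of the members, 45 other genes that overlap none of them were tested, of which 11 fell and 6 rose (24.4% and 13.3%, against 10.7% and 11% of all genes tested). These genes were named after their values were seen. On chromosome 8, next to Zfp42, the neighbours Triml1 and Triml2, which encode TRIM family-like proteins of early embryos, fell, with log2 fold changes of -2.71 (Benjamini-Hochberg adjusted p = 0.000972 by the edgeR quasi-likelihood test) and -1.88 (edgeR adjusted p = 0.00519). Triml1 had 246 and 298 CPM in WT1 and WT2 and 33.5 and 49.7 CPM in KO1 and KO2. Of 4 genes tested near Zfp42, 3 fell by edgeR and 2 by DESeq2. Gm2221, a pseudogene with at most 16 reads in any library, was the other that fell by edgeR, and Gm6284 was not called. Next to Tbx3 both noncoding genes tested, Tbx3os2 and Gm16063, fell with it (log2 fold changes -2.04 and -3.49, from at most 12.4 CPM). Next to Klf5, 2 of 3 genes fell, Dis3 (-1.40) and Pibf1 (-1.89). Of 3 genes near Nr0b1, 0 were called by edgeR (1 lower at an unadjusted p under 0.05, and 1 by DESeq2). Their log2 fold changes were -2.64 for Mageb4, and 1.73 and 0.65 for the pseudogenes Gm41 and Mageb10-ps. These pseudogenes had at most 57 and 25 reads in any library. Of 3 genes near Prdm14, 0 fell (0 also at an unadjusted p under 0.05 and by DESeq2) and Slco5a1 rose (1.12). Of 6 genes near Esrrb, 0 were called by edgeR, at an unadjusted p under 0.05 or by DESeq2, with a median of -0.57. Near Klf4 and Tfcp2l1 1 of 2 genes fell at each, ENSMUSG00000120546 (-2.59) and Gli2 (-1.62), and near Nr5a2 1 of 3 did, the pseudogene Gm29718 (-2.83). Around Klf2, 5 of 17 genes rose and 1 fell, with a median of 0.62 beside chromosome medians of 0.51 in both KO libraries, and Hsh2d rose most, from 18 and 8 reads in WT1 and WT2 to 318 and 279 in KO1 and KO2.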
